A study of Mus musculus with 8 samples.

Results

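The genes described here are 30 markers of GABAergic interneurons, the nerve cells that release the inhibitory transmitter GABA. They were taken by name from the probe-to-gene table of the array, where all 30 had a probe, among 19321 gene symbols on 23473 probes. Where a gene had several probes, the one with the highest mean spot intensity over the 8 arrays stood for it. The 30 genes were grouped as 8 general GABA genes, 11 genes of interneurons born in the medial ganglionic eminence (MGE), 6 genes of those born in the caudal ganglionic eminence (CGE), and 5 genes found in interneurons of both origins.

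Interneurons are a small share of the cells of the dentate gyrus, whose main cells are the excitatory granule neurons. The eminences are transient structures of the embryonic forebrain. The medial one gives rise to the parvalbumin and somatostatin cells, which inhibit the cell bodies and the dendrites of principal neurons. The caudal one gives rise to the VIP cells, many of which inhibit other interneurons, to the CCK basket cells and to part of the neurogliaform cells. All of these share the machinery for making GABA and loading it into vesicles.

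The study compared male C57BL/6J mice with and without Cav3.1, the pore subunit of a low-threshold (T-type) calcium channel encoded by Cacna1g. Total RNA from the dorsal hippocampal dentate gyrus was labelled with Cy5 and hybridised to single-colour TORAY chips, with 4 arrays from wild-type (WT) mice and 4 from Cav3.1 KO mice. All animals were 8 to 12 weeks old, and the labels name no treatment. The labels do not say how the channel was deleted, in which cells, or on which litters, and they speak of slices without saying that each came from another animal. The p-values therefore describe how these arrays vary, and that variation may be technical only.

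Blank spots averaged 53.0 to 63.4 intensity units per array, and 85.4% to 93.0% of probes were above the 95th percentile of their array's blanks. The Cacna1g probe, whose place relative to the deleted part is not known and which therefore checks no label, gave log2 intensities of 6.43 to 6.61 on the WT arrays and 6.39 to 6.55 on the KO arrays (difference -0.08, SE 0.0508, limma adjusted p = 0.816). The 10 granule neuron markers, a list chosen with earlier results known, were all detected on every array. Their mean was 7.22 to 7.28 on the WT arrays and 6.96 to 7.05 on the KO arrays, and 2 of the 10 passed the test, both lower. Of all probes tested, 0.288% passed it, 0.199% higher in KO and 0.0898% lower. KO replicates 2 and 3 stood apart by a list of 15 thalamus and habenula markers, with means of 7.45 and 7.42, against 6.64 to 6.94 on the WT arrays and 6.75 and 6.72 on KO replicates 1 and 4. Of the 14 of these that were tested, 12 were higher in the KO mean and 0 were called, and Tcf7l2, a defining thalamic factor, was above the blanks on 1 array. Tac2 was high on KO replicates 2 and 3 only, at 8.82 and 8.63, against 6.17 to 6.48 on the other arrays. Prkcd was high on WT replicates 1 and 2 too, at 8.66 and 8.62, beside 9.005 and 9.184 on KO replicates 2 and 3. On the remaining arrays Prkcd was 6.96 to 7.13. Ramp3 was 8.40 on both of these WT replicates and 9.04 and 8.77 on KO replicates 2 and 3, against 7.02 to 7.77 on the remaining arrays. Chip numbers fell in 2 runs, with 3 arrays of each group in the first and WT replicate 3 and KO replicate 4 in the later one.

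No interneuron marker passed the test between the genotypes. Values are normalised log2 intensities, differences are KO minus WT, and a gene was called at a limma p-value under 0.05 after Benjamini-Hochberg adjustment over all 21150 probes tested. Of the 30 markers, 28 were bright enough to test and 0 of 28 were called, where 0.288% of all probes tested were called, 0.199% higher in KO and 0.0898% lower. An unadjusted limma p under 0.05 was reached by 2 of the 28, which is 7.14%, against 8.1% of all probes tested. These were Pvalb, higher in the KO mean as 3.76% of all probes were at that p, and Crhbp, lower in it as 4.34% were. In none of the 28 were the 4 KO arrays entirely above or below the 4 WT arrays, against 4.95% of all probes tested, and so the exact permutation test, whose smallest possible p here is 0.0286, gave no p under 0.05 either. The KO mean was the higher one in 18 of the 28 and the lower one in 10, where 49.3% of all probes tested were higher. Higher values were found for 12 of the 28 from the authors' deposited value table, where 33.7% of all probes were higher and the median over all probes also moved, to -0.063. The direction held in each of the refits for Gad2, Lhx6, Pvalb, Satb1, Nxph1, Crhbp, Vip, Lamp5, Ndnf and Reln, 10 of the 28. Those refits include the first chip run, and in the later run, with 1 array per genotype, Lhx6, Lamp5 and Ndnf differed the other way, by -0.080, -0.060 and 0.066. The median difference of the 28 was 0.0092, beside -0.00078 over all probes, and the median size of a difference was 0.029 beside 0.034.

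**Figure D1:**
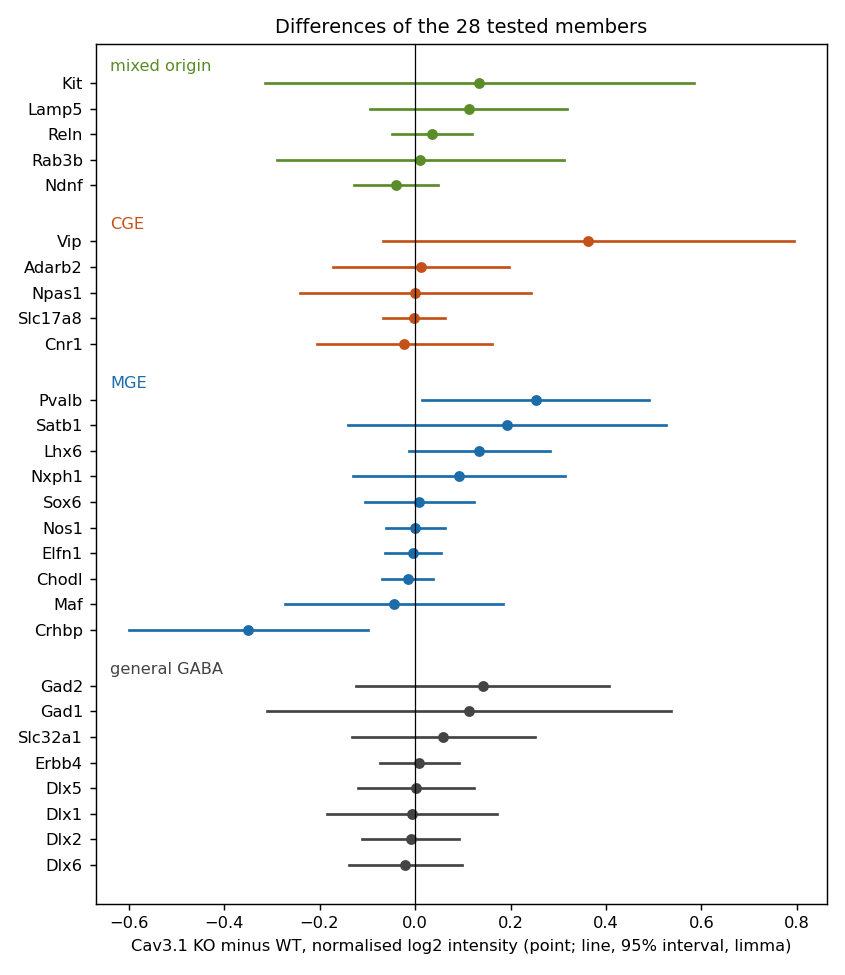
KO minus WT difference of each of the 28 tested interneuron markers (point, on the normalised log2 scale) with its 95% interval from limma, grouped by class. The differences run from -0.35 for Crhbp to 0.36 for Vip, the interval of 26 of the 28 lies within a 1.5-fold change, and 0 of 28 passed the adjusted test.

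The intervals bound what these arrays leave possible. For 26 of the 28, the 95% interval of the difference lay within a 1.5-fold change in either direction, as it did for 98.4% of all probes. The exceptions were Crhbp and Vip, and the upper bound of Kit, 0.585, lay at that limit. This scale shortens the differences of dim probes, and 13 of the 28 had a mean spot under 2 times the blanks. With each array's blank level subtracted, 22 of the 28 intervals lay within 1.5-fold. These were 11 of the 13 dim markers and 11 of the 15 brighter ones, so the wider intervals were not confined to dim markers. In bulk tissue, fewer interneurons and less RNA per interneuron cannot be told apart.

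The promoters of the 3 markers with the largest differences on the normalised scale, Vip, Crhbp and Pvalb, are shown to place them in the genome. With the blanks subtracted, dim Chodl, at -0.40, also exceeded Pvalb, at 0.33, in size. RefSeq windows of 300 bases, from 250 before to 50 after each start site (GRCm38.p6), were found for 26 of the 30 markers, 45 windows in all. They are written 5′ to 3′ on the gene's own strand, and capitals mark TATAAA (the TATA box), TGACG (the core of a cAMP response element) or TAATTA (a homeodomain core), each searched on both strands.
Vip, chr10:5638968-5639267, plus strand: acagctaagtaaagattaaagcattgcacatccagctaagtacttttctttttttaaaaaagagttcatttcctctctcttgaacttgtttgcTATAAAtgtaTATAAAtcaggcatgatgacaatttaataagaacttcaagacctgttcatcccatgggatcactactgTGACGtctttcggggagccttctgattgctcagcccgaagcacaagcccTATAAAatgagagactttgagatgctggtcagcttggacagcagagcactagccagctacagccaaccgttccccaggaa
Crhbp, chr13:95444782-95445081, minus strand: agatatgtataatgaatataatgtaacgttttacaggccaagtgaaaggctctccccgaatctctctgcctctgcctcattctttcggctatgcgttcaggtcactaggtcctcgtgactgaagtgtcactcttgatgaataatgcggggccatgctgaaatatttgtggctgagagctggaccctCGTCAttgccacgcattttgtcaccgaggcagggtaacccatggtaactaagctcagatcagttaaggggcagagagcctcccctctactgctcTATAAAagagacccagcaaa
Pvalb, first window, chr15:78204188-78204487, minus strand: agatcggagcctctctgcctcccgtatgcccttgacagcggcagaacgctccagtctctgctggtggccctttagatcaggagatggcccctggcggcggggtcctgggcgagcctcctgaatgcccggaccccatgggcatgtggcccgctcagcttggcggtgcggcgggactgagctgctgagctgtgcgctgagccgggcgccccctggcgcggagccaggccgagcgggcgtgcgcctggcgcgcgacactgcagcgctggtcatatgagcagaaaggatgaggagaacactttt
Pvalb, second window, chr15:78206351-78206650, minus strand: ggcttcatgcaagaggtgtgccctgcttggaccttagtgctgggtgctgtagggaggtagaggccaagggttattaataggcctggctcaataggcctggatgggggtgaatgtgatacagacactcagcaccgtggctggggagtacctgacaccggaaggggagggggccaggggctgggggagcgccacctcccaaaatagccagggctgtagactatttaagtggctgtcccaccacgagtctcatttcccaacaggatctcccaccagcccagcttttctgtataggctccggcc
The Vip window held TATAAA with its first base at 157, 147 and 30 bases before the start site, and TGACG at 79 before it. The Crhbp window held TGACG on the other strand, read as CGTCA, at 64 before the start site, and TATAAA at 30 after it. Neither Pvalb window held any of these motifs. TATAAA was in 8 of the 45 windows and in 13.6% of 32851 windows of the same length over all genes. TGACG was in 8 of the 45 against 20.8%, TAATTA in 3 of the 45 against 5.29%, the E-box CACGTG in 3 of the 45 against 7.15%, and TGACGTCA, which contains TGACG, in 0 of the 45 against 1.79%. The median GC content was 55.3% in the 45 windows and 52.7% over all windows. By class it was 62.3% in the 6 windows of the general GABA genes, 60.3% for mixed-origin, 54.2% for MGE and 53% for CGE genes.

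Among the general GABA genes, those that make and package the transmitter were not called, which leaves differences within their intervals possible. Gad1 and Gad2 encode the 2 glutamate decarboxylases that make GABA, and Slc32a1 encodes the transporter that loads it into vesicles. Gad1 read 10.00, 10.09, 10.10 and 9.60 on WT arrays 1 to 4, and 9.91, 9.71, 10.08 and 10.54 on KO arrays 1 to 4. The groups overlapped, with WT 4 lowest and KO 4 highest of the 8, and the difference was 0.11 (SE 0.184, limma adjusted p = 0.979, exact permutation p = 0.686). Gad2 read 8.29, 8.75, 8.21 and 8.24 in WT and 8.54, 8.48, 8.59 and 8.45 in KO. All 4 KO arrays lay between WT 2, the highest of the 8, and the other 3 WT arrays, and the difference was 0.14 (SE 0.115, limma adjusted p = 0.911, exact permutation p = 0.343). A second Gad2 probe showed the same order of WT 2 above the KO arrays on its own scale and differed by 0.12 (SE 0.0672, limma adjusted p = 0.755). Without WT replicate 2, the first probe's limma adjusted p was 0.0807, the lowest of any marker under any alternative. Slc32a1 read 8.26, 8.41, 8.26 and 8.30 in WT and 8.58, 8.28, 8.18 and 8.42 in KO. Here the KO arrays spread to both sides of the WT arrays, and the difference was 0.06 (SE 0.0835, limma adjusted p = 0.975, exact permutation p = 0.571).

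The other 5 general GABA genes had smaller differences, 4 of them on dim spots. Dlx1, Dlx2, Dlx5 and Dlx6 are homeobox factors that specify GABAergic neurons in the embryo and lie as neighbouring pairs, Dlx1 beside Dlx2 and Dlx6 beside Dlx5, while Erbb4 is the neuregulin receptor of interneurons. Their differences ran from -0.020 for Dlx6 to 0.0093 for Erbb4, on a scale that shortens the differences of dim probes. Dlx2, Dlx5, Dlx6 and Erbb4 were at 1.33 to 1.48 times the blanks. With the blanks subtracted, the 5 differences ran from -0.051 for Dlx6 to 0.027 for Erbb4. A second Erbb4 probe was above the blanks on 3 arrays and was not tested. Gad1 had the highest signal of the class over its background, at 18.3 times the blanks, and Dlx2 the lowest, at 1.33 times. Over the 8 genes, 5 were higher in the KO mean and the median difference was 0.0059.

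**Figure D2:**
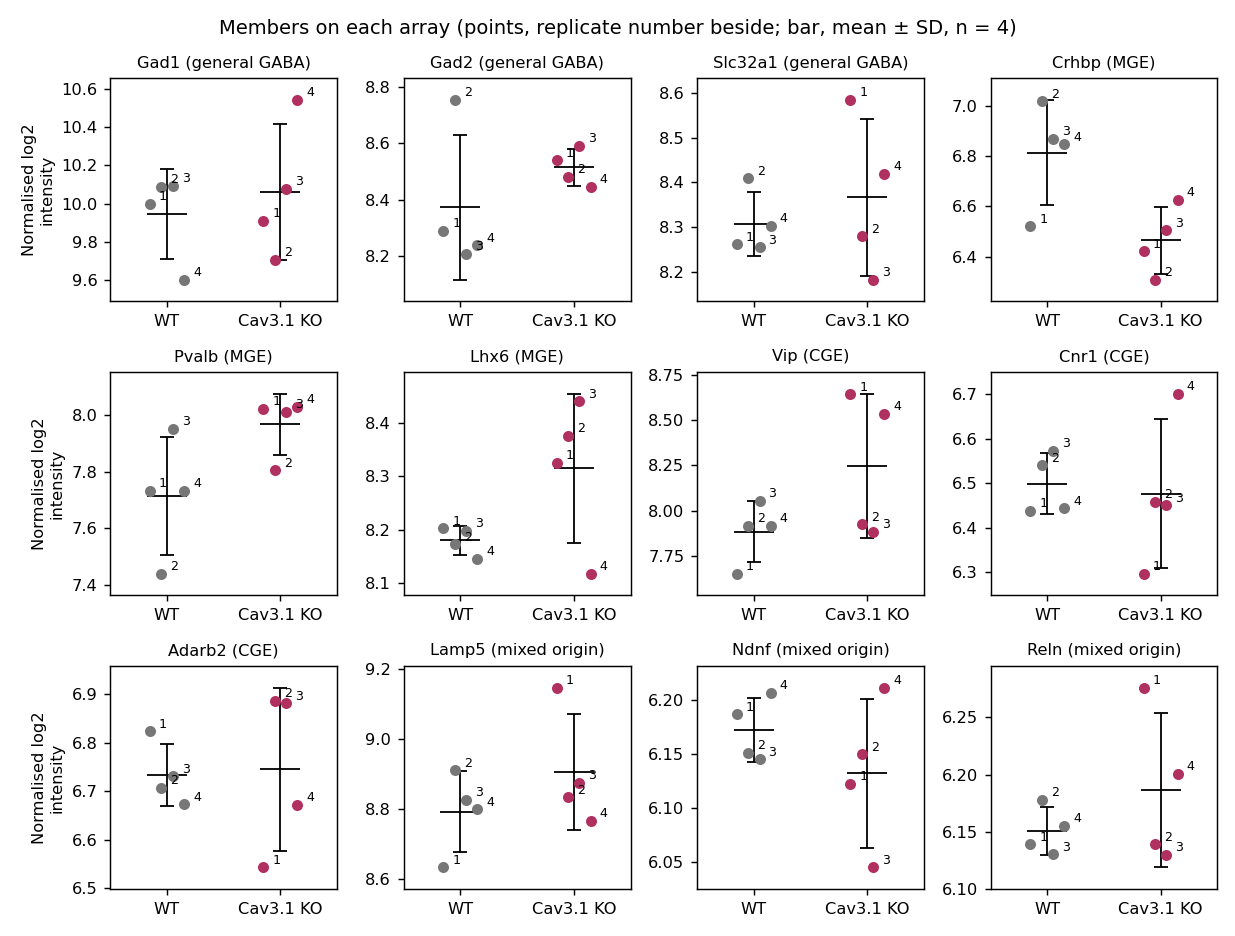
Normalised log2 intensity of the 12 markers given in full, with 1 numbered point for each WT and KO array and a bar at each group mean with its SD (n = 4); each panel has its own vertical axis. Crhbp and Pvalb show the widest gaps between group means among the MGE genes, yet no panel has groups that do not overlap, and the 4 KO points of Vip lie in 2 pairs.

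The MGE class held the only 2 unadjusted p-values under 0.05, and they had opposite signs. Crhbp encodes the secreted protein that binds corticotropin-releasing hormone and marks part of the somatostatin cells. It read 6.52, 7.02, 6.87 and 6.85 on the WT arrays and 6.42, 6.31, 6.51 and 6.63 on the KO arrays. Only WT 1 reached down among the KO values, and KO 4 alone lay above it. The difference was -0.35 (SE 0.109, 95% interval -0.599 to -0.099, limma p = 0.0122, adjusted p = 0.379, exact permutation p = 0.0571). The Crhbp spot was dim, at 1.86 times the blanks, and with the blanks subtracted the difference was -0.75 (limma adjusted p = 0.453). It was -0.38 within the first chip run and -0.24 in the later one.

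Pvalb encodes parvalbumin, the calcium buffer of fast-spiking basket cells. It read 7.73, 7.44, 7.95 and 7.73 on the WT arrays and 8.02, 7.80, 8.01 and 8.03 on the KO arrays. On 3 KO arrays it was above every WT array, while KO 2 was below WT 3. The difference was 0.25 (SE 0.104, 95% interval 0.015 to 0.491, limma p = 0.0401, adjusted p = 0.585, exact permutation p = 0.0571). Within the first chip run it was 0.31, and 0.077 in the later run.

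Lhx6, the LIM homeobox factor that MGE-derived interneurons keep into adulthood, read 8.20, 8.17, 8.20 and 8.15 on the WT arrays and 8.33, 8.38, 8.44 and 8.12 on the KO arrays. KO 1 to 3 were above all WT arrays and KO 4 was the lowest of the 8. The difference was 0.13 (SE 0.0642, limma adjusted p = 0.676, exact permutation p = 0.143), 0.21 within the first chip run and -0.080 in the later one, and without KO replicate 4 the adjusted p was 0.126.

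The remaining MGE genes differed by -0.044 to 0.19. Highest was Satb1, a chromatin organiser needed for the maturation of somatostatin cells, and it had the strongest signal of the class at 7.07 times the blanks. Lowest was Maf, a transcription factor that microglia also express. The microglia list, with 6 of its 6 tested genes lower in the KO mean and 0 called, averaged 7.52 to 7.65 on the WT arrays and 7.41 to 7.53 on the KO arrays, and its part in the Maf value was not tested. Nxph1, a secreted ligand of neurexins, differed by 0.092 (SE 0.0966, limma adjusted p = 0.953). Sox6, a transcription factor shared with oligodendrocyte precursors, differed by 0.0090, where that list had 5 of 6 genes higher in the KO mean and 0 called. Elfn1, a postsynaptic adhesion protein of somatostatin cells, Nos1, the neuronal nitric oxide synthase, and Chodl, a lectin-like marker of long-range somatostatin cells, were at 1.04 to 1.11 times the blanks, and their differences lay between -0.016 and 0.00091. Chodl was above the blanks on 3 WT and 2 KO arrays. Nkx2-1, the factor that specifies the MGE in the embryo and is shut off in most of its adult cortical and hippocampal interneurons, had the weakest signal, at 1.01 times the blanks, was above them on 1 WT and 0 KO arrays, and was not tested. Of the 10 MGE genes tested, 6 were higher in the KO mean and the median difference was 0.0049.

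Among the CGE genes, Vip had the largest difference, and its KO group was uneven. It encodes vasoactive intestinal peptide, the transmitter peptide that names the VIP cells. It read 7.65, 7.91, 8.05 and 7.91 on the WT arrays and 8.64, 7.92, 7.88 and 8.54 on the KO arrays. KO 1 and KO 4 were above all WT arrays, while KO 2 and KO 3, the arrays with most thalamus and habenula signal, lay inside the WT range. The difference was 0.36 (SE 0.187, 95% interval -0.068 to 0.794, limma p = 0.0882, adjusted p = 0.725, exact permutation p = 0.229). It was 0.32 within the first chip run and 0.48 in the later one, and 0.45 with the blanks subtracted, a scale on which Crhbp had the larger difference.

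Cnr1, the CB1 cannabinoid receptor on the terminals of CCK basket cells, read 6.44, 6.54, 6.57 and 6.44 on the WT arrays and 6.30, 6.46, 6.45 and 6.70 on the KO arrays. KO held both the lowest and the highest value, and the difference was -0.022 (SE 0.0800, limma adjusted p = 0.996, exact permutation p = 0.914). Adarb2, an RNA-editing family member that marks CGE cells broadly, read 6.82, 6.71, 6.73 and 6.67 on the WT arrays and 6.54, 6.89, 6.88 and 6.67 on the KO arrays. KO 2 and KO 3 were the highest of the 8 and KO 1 the lowest, and the difference was 0.012 (SE 0.0799, limma adjusted p = 0.997, exact permutation p = 0.914). Npas1, a transcription factor of CGE-derived cells, and Slc17a8, the vesicular glutamate transporter VGLUT3 of some CCK cells, differed by 0.00046 and -0.0019. Signal over the blanks was highest for Vip, at 4.80 times, and lowest for Sp8, at 1.03 times. Sp8, a zinc-finger factor of developing CGE cells, was above the blanks on 2 WT and 0 KO arrays and was not tested. Over the 5 tested, 3 were higher in the KO mean and the median difference was 0.00046.

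Of the 5 genes of mixed origin, Lamp5, a lysosome-associated membrane protein that marks neurogliaform cells, had the strongest signal at 8.10 times the blanks. It read 8.63, 8.91, 8.83 and 8.80 on the WT arrays and 9.15, 8.83, 8.87 and 8.77 on the KO arrays. KO 1 alone exceeded the WT range, and the difference was 0.11 (SE 0.0896, limma adjusted p = 0.901, exact permutation p = 0.400). Ndnf, a secreted neurotrophic factor of neurogliaform cells, had the weakest signal at 1.32 times the blanks. It read 6.19, 6.15, 6.14 and 6.21 in WT and 6.12, 6.15, 6.05 and 6.21 in KO, with overlapping groups and a difference of -0.040 (SE 0.0381, limma adjusted p = 0.940, exact permutation p = 0.400). Reln, the extracellular signal reelin, read 6.14, 6.18, 6.13 and 6.15 in WT and 6.28, 6.14, 6.13 and 6.20 in KO. KO 1 and KO 4 were the highest of the 8, and the difference was 0.036 (SE 0.0366, limma adjusted p = 0.948, exact permutation p = 0.429). Ndnf and Reln are also made by Cajal-Retzius cells, and of the 6 markers of those cells 5 were higher in the KO mean, 0 were called and 0 were at 2 times the blanks or more. Over the 5 genes of mixed origin, 4 were higher in the KO mean and the median difference was 0.036. That median was 0.13 with the blanks subtracted and -0.0046 within the first chip run.

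Kit, the receptor of stem cell factor, and Rab3b, a GTPase of synaptic vesicles, are described beyond this because their values were seen to divide the KO arrays. Kit read 6.94, 7.34, 7.08 and 7.15 on the WT arrays and 7.60, 6.80, 7.01 and 7.63 on the KO arrays. KO 1 and KO 4 were above every WT array and KO 2 was below every one, and the difference was 0.13 (SE 0.196, limma adjusted p = 0.976, exact permutation p = 0.571). Rab3b read 7.45, 7.86, 7.81 and 7.70 in WT and 7.83, 7.48, 7.56 and 7.99 in KO. KO 4 was the highest of the 8 and KO 2 and KO 3 were the lowest but for WT 1, and the difference was 0.011 (SE 0.130, limma adjusted p = 0.998, exact permutation p = 0.914).

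**Figure D3:**
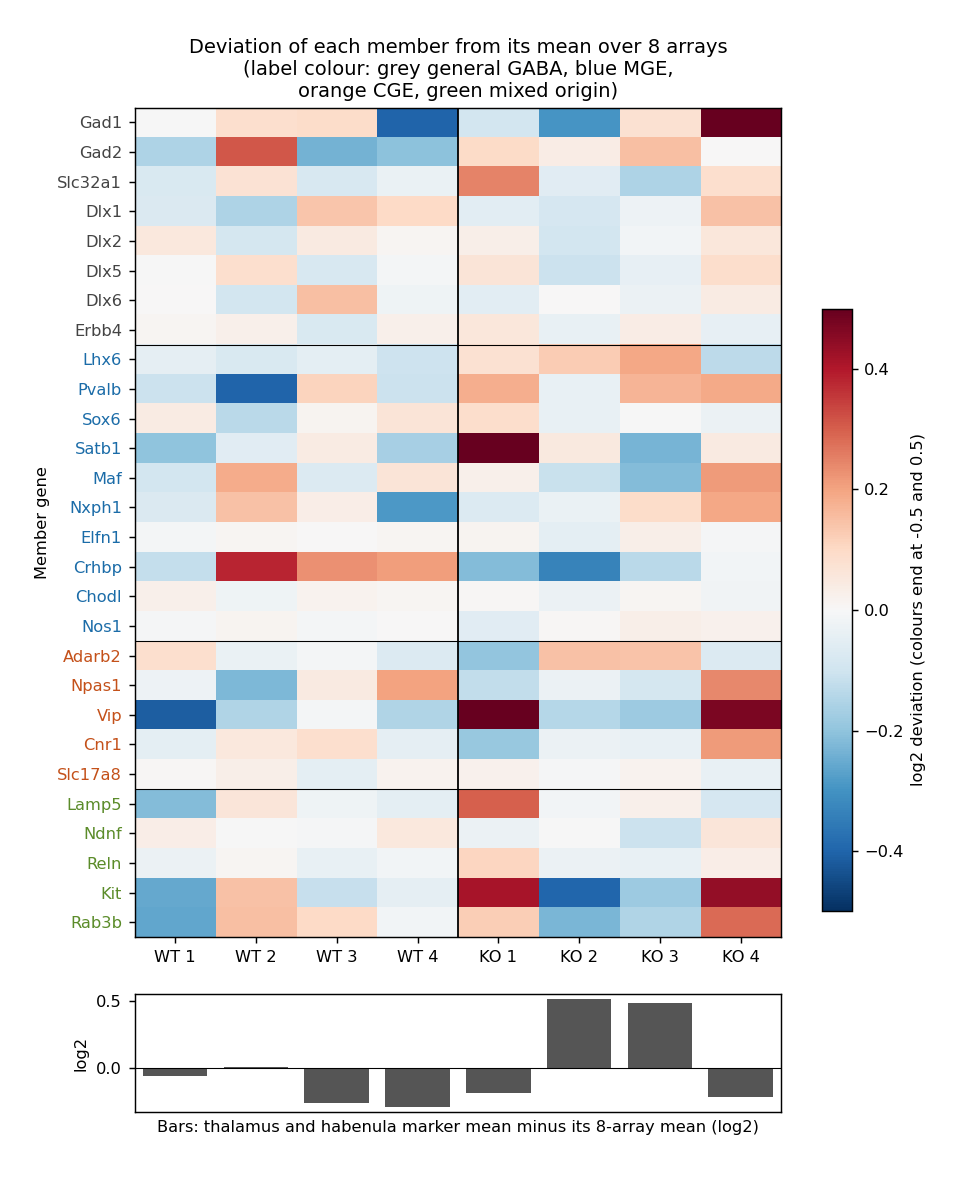
Deviation of each of the 28 tested markers from its own mean over the 8 arrays (colour, normalised log2; rows grouped by class), above bars of the thalamus and habenula marker mean minus its mean over the arrays. Vip and Kit are high on KO 1 and KO 4 and lower on KO 2 and KO 3, the arrays where the bars are highest.

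The KO arrays differed more among themselves than the WT arrays for 18 of the 28 markers by SD, which is 64.3%, beside 54.0% of all probes tested. KO 4 held the highest KO value for 14 of the 28, and KO 2 the lowest for 11 and the highest for 1. KO 4 also stood apart by the 9 choroid plexus and ependyma markers, with a mean of 6.36 against 7.15 to 8.34 on the other arrays, and KO 1 had the next lowest KO mean, 7.45, against 8.31 and 8.08 on KO 2 and KO 3. The 7.15 was that of WT 3, which shared the later chip run with KO 4. Of these 9 markers, 7 were lower in the KO mean and 0 were called, and their part in the marker values was not tested. Leaving out KO 2 and KO 3, the arrays highest in thalamus and habenula markers, left 2 KO arrays against 4 WT arrays. Those 4 included WT 1 and WT 2, where the thalamus and habenula markers Prkcd and Ramp3 were also high. In that fit 0 of the 28 markers were called, where 0.0804% of all probes tested were called, and 21 of the 28 were higher in the KO mean, where 49.6% of all probes tested were higher. Unadjusted p-values under 0.05 were reached by 4 of the 28, Vip, Kit, Slc32a1 and Satb1, all higher in KO, against 8.87% of all probes tested in either direction and 4.21% higher. The Vip difference was then 0.71 (limma adjusted p = 0.153) and the Kit difference 0.49 (limma adjusted p = 0.261). That of Slc32a1 was 0.19 (limma adjusted p = 0.467) and that of Satb1 0.38 (limma adjusted p = 0.507). For Vip, Kit and Slc32a1, KO 2 and KO 3 were the lowest KO arrays, and for Satb1 KO 3 was. Leaving out such low arrays raises the KO mean by construction, so these unadjusted p-values and their count are no separate support for a difference. The part that thalamic and habenular RNA had in the lower values on KO 2 and KO 3 was not tested.

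Other genes of inhibitory signalling were read on the same arrays from 4 further lists, in which 0 genes were called. For GABA uptake and breakdown, 4 of 6 genes were higher in the KO mean, with a median difference of 0.095. The smallest p-values there were those of Slc6a11, the glial GABA transporter GAT3, at 0.21 (SE 0.0710, limma p = 0.0184, adjusted p = 0.431, exact permutation p = 0.0571), and Slc6a13, the transporter GAT2 of meninges and vessels, at -0.13 (limma adjusted p = 0.665). For the inhibitory postsynapse and chloride transport, 4 of 8 were higher, with a median of 0.00077. Iqsec3, an exchange factor bound to gephyrin, differed by 0.098 and Lhfpl4, a GABA-A receptor partner, by -0.12 (limma adjusted p = 0.667 and 0.831), while a second Lhfpl4 probe differed by 0.048.

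Interneuron peptides and calcium buffers included values larger than those of the 28 markers. In 3 of these 10 genes the groups did not overlap, which is 30% beside 4.95% of all probes tested, and 4 of 10 were higher in the KO mean, with a median of -0.070. The list was chosen with earlier results of these data known, so setting its share beside that of all probes is no test. Npy, the peptide neuropeptide Y of somatostatin and neurogliaform cells, read 9.33, 9.51, 9.46 and 9.43 on the WT arrays and 9.16, 8.80, 9.09 and 9.09 on the KO arrays. Every KO array was below every WT array, and the difference was -0.40 (SE 0.0787, limma p = 0.00096, adjusted p = 0.130, exact permutation p = 0.0286). Cort, the somatostatin-like peptide cortistatin, read 7.94, 8.08, 8.16 and 8.25 in WT and 7.85, 7.47, 7.76 and 7.68 in KO. Its groups did not overlap either, and the difference was -0.42 (SE 0.0925, limma adjusted p = 0.170, exact permutation p = 0.0286). The third gene without overlap had the opposite sign. It was Calb1, the buffer calbindin, which granule neurons also make, with 9.36 to 9.75 on the WT arrays and 9.78 to 10.28 on the KO arrays (difference 0.34, SE 0.127, limma adjusted p = 0.523, exact permutation p = 0.0286). Tac1, the precursor of substance P, had overlapping groups and a difference of 0.24 (limma p = 0.0325, adjusted p = 0.549, exact permutation p = 0.114), and 0.27 by its second probe. Calb1 and Tac1 were chosen after their values were seen. Calb2, the buffer calretinin, is named because its values followed the thalamus and habenula markers. It read 7.80, 8.15, 7.41 and 6.96 in WT and 7.75, 8.88, 8.78 and 7.43 in KO, and was highest on KO 2 and KO 3 (difference 0.63, limma adjusted p = 0.806). Without those 2 arrays the Calb2 difference was 0.012, that of Npy -0.31 and that of Cort -0.35.

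Further identity genes of interneurons, 19 in number, had 11 higher in the KO mean and a median of 0.013. The groups did not overlap in 5 of the 19, which is 26.3% beside 4.95% of all probes tested. Because this list too was chosen with earlier results of these data known, these shares are no test of it. Chrm2, the muscarinic M2 receptor, read 6.44 to 6.53 on the WT arrays and 6.65 to 6.87 on the KO arrays (difference 0.28, SE 0.0522, limma adjusted p = 0.109, exact permutation p = 0.0286). Btbd11, an ankyrin-repeat protein of interneuron synapses, averaged 6.91 ± 0.0900 in WT and 7.21 ± 0.0899 in KO (SD, n = 4; difference 0.30, SE 0.0583, limma adjusted p = 0.121, exact permutation p = 0.0286). Every KO array was above every WT array for both, and KO 2 and KO 3 were the 2 highest of the 8 for each. Without them the differences were 0.19 for Chrm2 and 0.23 for Btbd11.

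**Figure D4:**
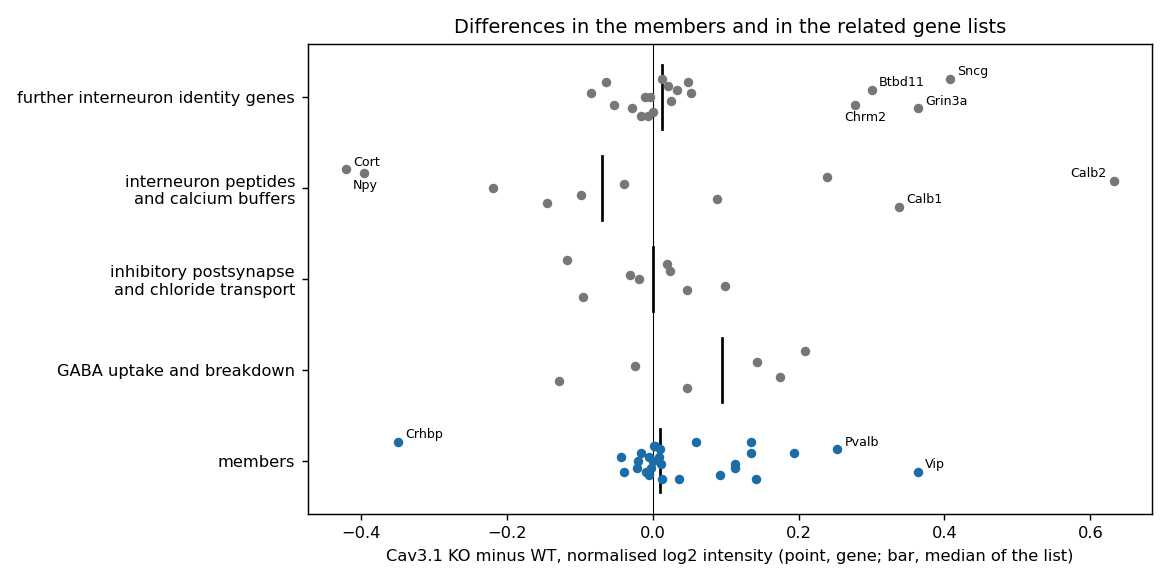
KO minus WT difference (normalised log2) of each tested gene among the interneuron markers and in the 4 related gene lists; each point is a gene and the vertical bar is the median of the list. Named points are genes with the largest differences, and the list medians run from -0.070 for peptides and calcium buffers to 0.095 for GABA uptake and breakdown.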

How the data were processed

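Cy5 spot intensities of 8 single-colour arrays were used as deposited, per the file headers. The chips were scanned at 3 gains, with the merging of gains not stated. A deposited value table, whose intensities the authors scaled to 1 median of 25 per array, with no centring of genes and 0 near the blank level, served as an alternative; the name of that normalization stays unknown. The second intensity under the background heading correlated with the spot at 0.994 to 0.996 and was not subtracted. In R 4.3.3 with limma 3.58.1, intensities were corrected by normexp (offset 50), quantile normalised and taken as log2. Probes above the 95th percentile of their array's blanks on at least 4 of 8 arrays entered the tests, 21150 in all. Dim probes (2239) and probes with a spot flagged not good on any array (84) did not. Genotypes were compared by lmFit and eBayes without covariates, after a test on simulated data, and single genes by two-sided exact permutation over 70 arrangements. Of the probes, 20690 had 1 gene symbol, 0 several and 2783 none. The arrays' number limits the precision.

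Given in full are markers past the threshold, up to 3 per class with the smallest limma p, and Gad1, Gad2 and Slc32a1; the rest by ranges, with the strongest and weakest signal of each class, and up to 2 genes of each related list. Members and lists were chosen with earlier results of these data known. Some genes of the related lists are not reported here, nor are the Dlx5, Dlx6, Ndnf and Maf promoters. Alternatives changed the background correction, normalisation, source of values, dim filter, chip run, replicate block, arrays and probes.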

Additional observations from a re-analysis of the deposited data

Results flagged for a closer look

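In 3 of the 60 groups of 4 arrays examined (30 markers in 2 genotypes), 1 array stood apart from the other 3 by more than Dixon's 95% limit on the gap as a share of the range, and chance alone flags about 1 group in 20. Gad2 on WT replicate 2 was high, at 8.754, with the next WT array at 8.29. Erbb4 on WT replicate 3 was low, at 6.253, with the next at 6.338. Pvalb on KO replicate 2 was low, at 7.804, with the next KO array at 8.012.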

How the results depend on the processing

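Under all 18 alternatives, 0 of the tested markers were called, and the lowest limma adjusted p was 0.0807. Gad2, Lhx6, Pvalb, Satb1, Nxph1, Crhbp, Vip, Lamp5, Ndnf and Reln, 10 in all, kept their direction in each of these refits, which do not include the later chip run alone. Of 505 refits of single markers, 432 kept the direction and 73 turned it, and the cause was not tested. Changing the dim filter, or adding chip run or replicate number as a block, cannot change a difference in this balanced design. Refits under those settings kept the direction by construction, so the 432 overstates how stable the directions were. The median over all probes moved by -0.063 in the authors' deposited value table.

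Over all probes, 61 were called. That count was 36 with median scaling, 31 from the authors' deposited value table, 7 within the first chip run, 17 without KO replicates 2 and 3, and 16 to 49 with 1 array left out. With fewer arrays, fewer values enter the fit. The replicate number as a block left 8 calls and 0 markers. Same-numbered arrays correlated at -0.11, -0.077, -0.075 and 0.011 in their deviations, and differently numbered ones at -0.37 to 0.40. The labels do not say whether the numbers pair the samples. These correlations cannot decide it, since the larger ones between other arrays could hide a pairing.

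The median difference of the markers was -0.048 from the value table and 0.052 without KO replicates 2 and 3. Without those arrays it was 0.061 for general GABA, 0.037 for MGE and 0.16 for mixed-origin genes, and 0.00031, the Cnr1 value, for CGE genes.

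Differences that turned sign were as follows. With median scaling, Sox6 was -0.022, Elfn1 0.013, Chodl 0.0063, Npas1 -0.011, Slc17a8 0.013 and Rab3b -0.029. From the value table, Dlx5 was -0.048, Erbb4 -0.023, Sox6 -0.049, Chodl 0.025, Nos1 -0.083, Adarb2 -0.047, Npas1 -0.057 and Rab3b -0.051. Within the first chip run, Dlx5 was -0.052, Dlx6 0.010, Nos1 -0.0090, Npas1 -0.064, Kit -0.0046 and Rab3b -0.045. Without KO replicates 2 and 3, Dlx1 was 0.045, Dlx2 0.039, Maf 0.097, Elfn1 0.0011, Nos1 -0.017, Adarb2 -0.13 and Cnr1 0.00031. Nos1 was -0.026 with the blanks subtracted and Dlx5 -0.0048 by its second probe.

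With 1 array left out, Gad1 ran from -0.048 to 0.23, Slc32a1 from -0.013 to 0.12, Dlx1 from -0.059 to 0.039, Dlx2 from -0.039 to 0.020, Dlx5 from -0.026 to 0.038, Dlx6 from -0.054 to 0.027, Erbb4 from -0.015 to 0.024 and Sox6 from -0.034 to 0.031. Maf ran from -0.12 to 0.021, Elfn1 from -0.016 to 0.010, Nos1 from -0.0092 to 0.020, Adarb2 from -0.035 to 0.080, Npas1 from -0.079 to 0.068, Cnr1 from -0.097 to 0.038, Slc17a8 from -0.019 to 0.010 and Rab3b from -0.081 to 0.089.

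Signal over background limits 13 of the 28 markers, whose spots averaged under 2 times the blanks.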
